A study of Mus musculus with 2 samples.

Results

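Mitochondria carry a small circular genome with 13 protein-coding genes, 2 rRNA genes and 22 tRNA genes, and chromosome 1 of the mouse reference holds a stretch of the same sequence. Each of the 13 protein-coding genes is called an mRNA here, although some share a transcript, as given below. The genes described here are those 37 genes of the mitochondrial chromosome and 5 pseudogenes on chromosome 1, chosen by their position in the GENCODE M21 annotation and by name, which makes 42 of 43346 rows with Ensembl gene identifiers. Both RNA libraries came from pools of 30 Purkinje cells, the output neurons of the cerebellar cortex, cut by laser capture from male B6CASTF1/J mice aged 14 months. The labels also describe the animals as a cross of Castaneus and C57Bl. They give both pools the same donor identifier and do not say whether 1 animal supplied both, so an SD here measures the spread between these libraries, which may be technical. There is a single group and no contrast between conditions. The strain of the mother, from whom mitochondrial DNA is inherited, is not stated in words, and reads were assigned to the mm10 reference, which is of C57BL/6J. The part of that difference in the counts was not tested.

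Both strands of mitochondrial DNA are transcribed as long precursors, which are cut largely at the tRNAs that lie between the other genes. Most mRNAs then receive a poly(A) tail, which in several of them completes the stop codon. The proteins are core subunits of respiratory complexes I, III and IV and of the ATP synthase, complex V, whose other subunits come from nuclear genes. Fragments of mitochondrial DNA have been inserted in the nuclear genome during evolution, and the chromosome 1 block is such an insertion. Purkinje cells fire continuously and use much ATP.

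The 5 pseudogenes are near-perfect copies of the genes for 3 cytochrome oxidase subunits, an ATP synthase subunit and a complex I subunit. In the order of the block these are Gm29216, a copy of the 3′ part of mt-Co1, then Gm28661 of mt-Co2, Gm10925 of mt-Atp6, Gm28437 of mt-Co3 and Gm28438 of mt-Nd3. Their bases were aligned with the mRNAs, using GENCODE M21 transcript sequences on mm10. Over 681 bases of mt-Co2, 678 of mt-Atp6 and 783 of mt-Co3 the copy had no substitution. Gm29216 differed from mt-Co1 at 6 of 492 bases, and Gm28438 differed from mt-Nd3 at 1 of 345. All 6 substitutions of Gm29216 lay in its first bases, so that the remaining 479 bases were identical. The windows that hold every substitution are shown 5′ to 3′ because no other base differs inside the aligned stretches, with the differing bases in capitals.
mt-Co1 at chrM:6381-6423, plus strand: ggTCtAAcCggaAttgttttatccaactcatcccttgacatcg
Gm29216 at chr1:24616155-24616197, minus strand: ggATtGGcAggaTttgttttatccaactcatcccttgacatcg
mt-Nd3 at chrM:9459-9491, plus strand: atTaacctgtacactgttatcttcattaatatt
Gm28438 at chr1:24613087-24613119, minus strand: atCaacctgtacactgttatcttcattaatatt

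Counted from the first base of each mRNA, the changes are T1056A, C1057T, A1059G, A1060G, C1062A and A1066T in mt-Co1 and T3C in mt-Nd3. Apart from these bases the pairs differed only in where their annotation ends. The copies of mt-Co2, mt-Atp6 and mt-Nd3 stop 3 bases before the mRNA, and that of mt-Co3 stops 1 base before it. The ends are shown with the bases that only the mRNA row holds in capitals.
mt-Co2 at chrM:7664-7696: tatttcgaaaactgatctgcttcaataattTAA
Gm28661 at chr1:24614885-24614914: tatttcgaaaactgatctgcttcaataatt
mt-Atp6 at chrM:8575-8607: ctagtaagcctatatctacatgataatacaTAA
Gm10925 at chr1:24613974-24614003: ctagtaagcctatatctacatgataataca
mt-Co3 at chrM:9360-9390: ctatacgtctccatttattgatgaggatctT
Gm28437 at chr1:24613189-24613218: ctatacgtctccatttattgatgaggatct
mt-Nd3 at chrM:9774-9806: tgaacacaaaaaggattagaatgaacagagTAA
Gm28438 at chr1:24612775-24612804: tgaacacaaaaaggattagaatgaacagag

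In 3 of these pairs the extra bases are the stop codon TAA. In mt-Co3 the extra base is the single T that the poly(A) tail extends to a stop codon. The annotated block runs from 24611535 to 24616197 on chromosome 1, on the minus strand, over 4663 bases, and lines up with bases 6381 to 11042 of the mitochondrial chromosome. It begins inside mt-Co1 and ends inside mt-Nd4. It holds 7 annotated pseudogenes, of which Gm10222, a copy of mt-Nd4l, and Gm28439, a copy of the 5′ part of mt-Nd4, are not among the 42 genes. Neither of these had a substitution in its aligned bases, 294 and 876 in number. No annotated pseudogene in the block is a copy of mt-Atp8, of which Gm10925 holds the last 43 bases.

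**Figure D1:**
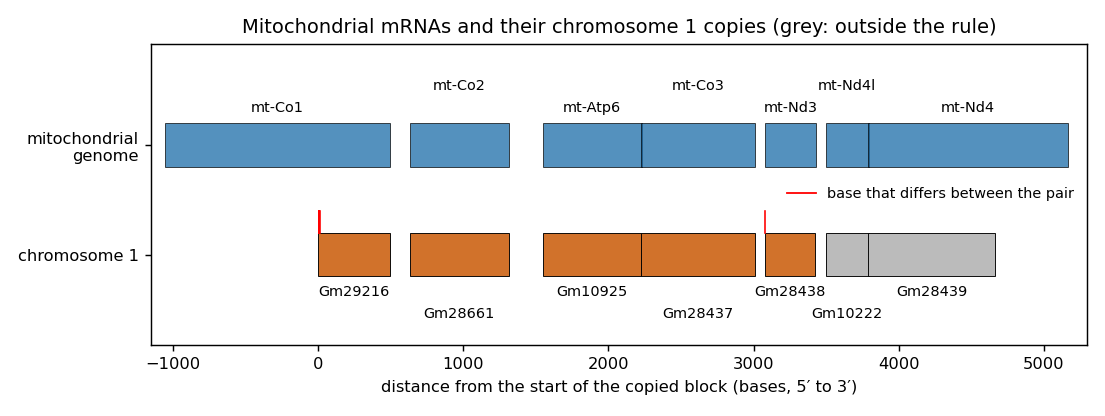
Position of the 7 mitochondrial mRNAs that have an annotated copy (top row) and of the copies on chromosome 1 (bottom row), in bases from the start of the copied block, with red ticks at substitutions. The copies run in the order and spacing of the mitochondrial genes, and the ticks stand only at the first bases of Gm29216 and Gm28438.

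The mitochondrial genes and the copies together took 20.7% of the counts on genes in pool 1 and 19.9% in pool 2, and the copies took more than the mitochondrial genes themselves. Expected counts are the quantifier's estimate of the reads that came from each gene. The 13 mRNAs together had 2350961 such counts in pool 1, against 1904416 in pool 2, which was 7.48% (exact 95% binomial interval 7.47 to 7.49) and 6.66% (6.65 to 6.67) of the counts on genes. The 5 copies held 3777033 and 3371585 counts, or 12.01% (12.003 to 12.026) and 11.79% (11.781 to 11.804). The 2 rRNAs held 1.17% (1.168 to 1.175) and 1.42% (1.413 to 1.422). These intervals treat every read as independent and do not measure the spread between libraries. For the mRNAs and the copies they also take the division of counts within each pair as given. By posterior mean counts, another deposited estimate, the mRNAs had a mean share of 8.58% and the copies 10.4%. By expected counts the mean shares were 7.07% and 11.9%. No label mentions molecular identifiers, so repeated reads of the same molecule cannot be told apart and the intervals may be too narrow. The shares of the pools lay outside each other's intervals for the mRNAs, the rRNAs and the copies. With a single library on each side that is no test of a difference.

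No tRNA had a count in either pool. The 22 tRNA rows are 59 to 75 bases long, and the deposited tables give each an effective length of 0, because the effective length of every transcript longer than 99 bases is its length minus 99. None of the 2231 annotated gene transcripts of 99 bases or fewer had a count. A count of 0 therefore gives no measure of tRNA, and the size range that the labels give for the RNA starts above 200. The shortest and longest tRNA genes, mt-Ts2 (serine) and mt-Tl1 (leucine), are shown for their length.
mt-Ts2 at chrM:11613-11671: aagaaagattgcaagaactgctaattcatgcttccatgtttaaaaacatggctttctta
mt-Tl1 at chrM:2676-2750: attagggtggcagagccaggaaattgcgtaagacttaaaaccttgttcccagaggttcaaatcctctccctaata

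The other 20 genes all passed a TPM of 1 in each pool, where TPM is the authors' abundance corrected for effective length and library total. Among the 20 gene rows of the highest mean TPM, 4 were mitochondrial mRNAs and 4 were copies. By mean TPM Gm28437 was in place 3 of all gene rows, followed by Gm10925 in place 4 and Gm28661 in place 5. By posterior mean TPM these copies had means of 37951, 37265 and 37305. Gm28661 was thus above Gm10925 by that estimate, and by TPM in pool 2 alone. Gm28437 (ENSMUSG00000101111.1, chr1:24613189-24613971) stood at 50352 TPM in pool 1 and 53344 TPM in pool 2. Gm10925 (ENSMUSG00000100862.1, chr1:24613974-24614651) stood at 41689 and 40929, and Gm28661 (ENSMUSG00000102070.1, chr1:24614885-24615565) at 37287 and 41070. Gm29216 (ENSMUSG00000101249.1, chr1:24615706-24616197) stood at 28270 and 26884, and Gm28438 (ENSMUSG00000101939.1, chr1:24612775-24613119) at 6523 and 7090. Each of the first 4 was above every mitochondrial gene in both pools. The 42 genes made up 25.2% of all TPM in pool 1 and 25.3% in pool 2.

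**Figure D2:**
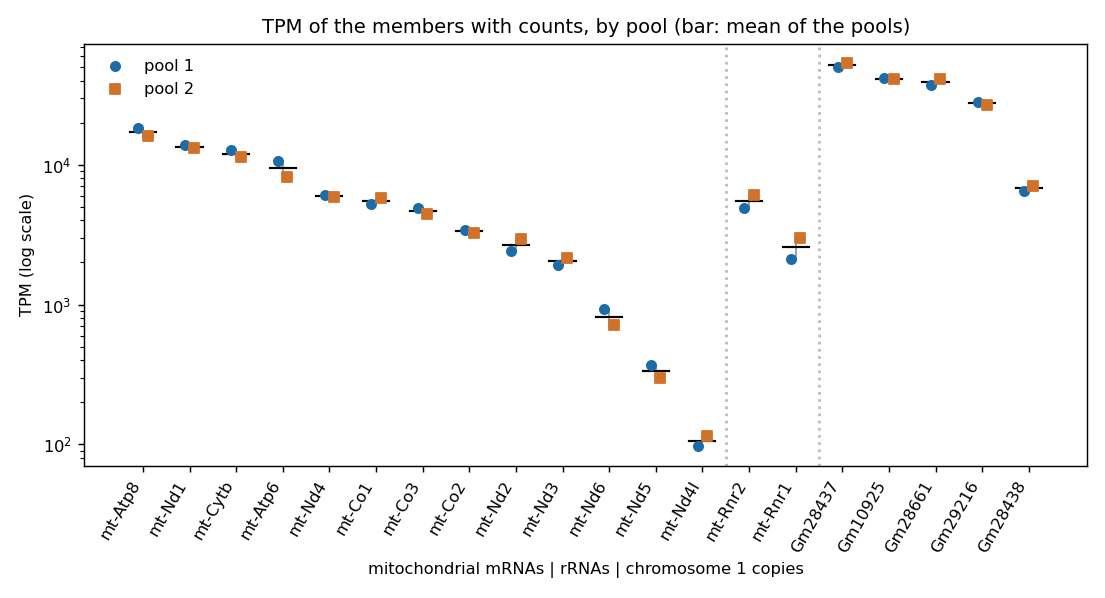
TPM on a log axis of the 20 genes with counts in each pool (circle pool 1, square pool 2, bar their mean), grouped as mRNAs, rRNAs and chromosome 1 copies. The copies Gm28437, Gm10925, Gm28661 and Gm29216 lie above every mitochondrial gene, and mt-Nd4l is the lowest.

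Complex I takes electrons from NADH, and 7 of its subunits are mitochondrially encoded. They spanned most of the 163-fold range of mean TPM over the 13 mRNAs. mt-Nd1 (chrM, 2751 to 3707), a subunit of the membrane arm, reached 13900 TPM in pool 1 and 13085 TPM in pool 2. mt-Nd4 (10167 to 11544), a proton-pumping subunit of the same arm, had 6110 and 5884. mt-Nd2 (3914 to 4951) had 2410 and 2948, and mt-Nd3 (9459 to 9806) had 1919 and 2160 before its copy is added.

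The remaining complex I mRNAs were low. mt-Nd6 (13552 to 14070), the only mRNA on the opposite strand to the others, had 924 in pool 1 and 711 in pool 2. mt-Nd5 (11742 to 13565), the longest mitochondrial mRNA, had 367 and 300.03. As annotated, mt-Nd6 and mt-Nd5 overlap by their last bases on opposite strands. The sources used here do not say whether counting used strand, so counts of mt-Nd6 may include RNA of the opposite strand over its whole length. That part was not tested. mt-Nd4l (9877 to 10173) had 96.5 and 115, the lowest of the 13. mt-Nd4l and mt-Nd4 lie on a single bicistronic mRNA, yet the TPM of mt-Nd4 was 63.3 times that of mt-Nd4l in pool 1 and 51.1 times in pool 2. With the counts of Gm10222 added to mt-Nd4l, these ratios were 12.2 and 11.9.

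Complex III passes electrons to cytochrome c, and its sole mitochondrial subunit is cytochrome b. mt-Cytb (14145 to 15288) reached 12712 TPM in pool 1 and 11279 TPM in pool 2, from 539552 and 412249 counts. It has no copy in the block, and these counts were the highest of any mitochondrial row before copies are added.

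Complex IV, cytochrome c oxidase, hands electrons to oxygen, and its catalytic core is mitochondrially encoded. mt-Co1 (5328 to 6872), the subunit that binds oxygen, stood at 5224 TPM in pool 1 and 5765 TPM in pool 2. mt-Co2 (7013 to 7696), which receives electrons from cytochrome c, had 3432 and 3246. mt-Co3 (8607 to 9390) had 4894 and 4453. All 3 have a copy, and all 3 stood below mt-Cytb in this count. With posterior means, the tables' other estimate of the same quantities, mt-Co3 alone was at 17781 TPM, above mt-Cytb at 11833.

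Complex V makes ATP, and its mitochondrial subunits are encoded by overlapping reading frames of a single mRNA. mt-Atp6 (7927 to 8607), part of the proton channel, had 10702 in pool 1 and 8240 in pool 2. mt-Atp8 (7766 to 7969), a part of the stator stalk, had 18429 and 16036, the highest TPM of the 13. The reading frames share 43 bases, shown because both rows, and Gm10925, hold them.
mt-Atp8 and mt-Atp6 overlap at chrM:7927-7969: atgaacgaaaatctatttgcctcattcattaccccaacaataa

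mt-Atp8 is 204 bases long, the shortest of the 13, so subtracting 99 bases weighs most on it. With full lengths in place of effective lengths it had a mean of 10629 ± 1076 (SD, n = 2) and was the third of the 13, behind mt-Nd1 at 14495 ± 663 and mt-Cytb at 13131 ± 1149.

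The rRNAs are part of the mitochondrial ribosome and are among the most abundant RNAs of the organelle. Here mt-Rnr2, the large-subunit 16S rRNA (1094 to 2675), stood at 4886 TPM in pool 1 and 6076 TPM in pool 2. mt-Rnr1, the small-subunit 12S rRNA (70 to 1024), had 2128 and 3008. Both were higher in pool 2, and mt-Rnr2 was 2.30 and 2.02 times mt-Rnr1. The neighbouring mt-Nd1 exceeded mt-Rnr2 in TPM by a factor of 2.84 in pool 1 and 2.15 in pool 2. The labels cite the manual of the SMARTer Ultra Low kit, whose cDNA synthesis is primed on poly(A), and the levels of rRNA relative to mRNA are those of such a library.

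Adding each copy to its mRNA moved mt-Co3, mt-Atp6, mt-Co2 and mt-Co1 to the top by summed TPM. The place of mt-Co1 depends on the length used, as given below. mt-Co3 with Gm28437 had 1534991 counts in pool 1 and 1382866 in pool 2, and a summed TPM of 55246 and 57797. The copy held 91.1% and 92.3% of those counts. mt-Co2 with Gm28661 had a summed TPM of 40719 and 44315, with 91.5% and 92.6% of counts in the copy. The summed mean was 12.1 times that of mt-Co3 alone and 12.7 times that of mt-Co2 alone, and with posterior mean TPM these factors were 3.13 and 9.07.

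mt-Atp6 with Gm10925 had a summed TPM of 52390 in pool 1 and 49169 in pool 2, and the copy held 79.5% and 83.2% of counts. The sum was 2.84 and 3.07 times the TPM of mt-Atp8, while mt-Atp6 alone was below mt-Atp8. mt-Nd3 with Gm28438 had a summed TPM of 8442 and 9250, with 77.1% and 76.4% of 84580 and 79817 counts in the copy. mt-Co1 with Gm29216 had a summed TPM of 33494 and 32649, with 59.5% and 55.9% in the copy.

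Gm29216 covers 31.8% of mt-Co1, at its 3′ end, so its TPM rests on a shorter length. Dividing the 758054 and 661096 counts of the pair by the effective length of mt-Co1 gave 12907 in pool 1 and 13072 in pool 2. On that scale mt-Co1 lay between mt-Nd1 and mt-Cytb, in place 6 rather than place 4. The other 4 pairs, whose copies cover at least 99.1% of the mRNA, moved by less than the SD between the pools under this change.

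**Figure D3:**
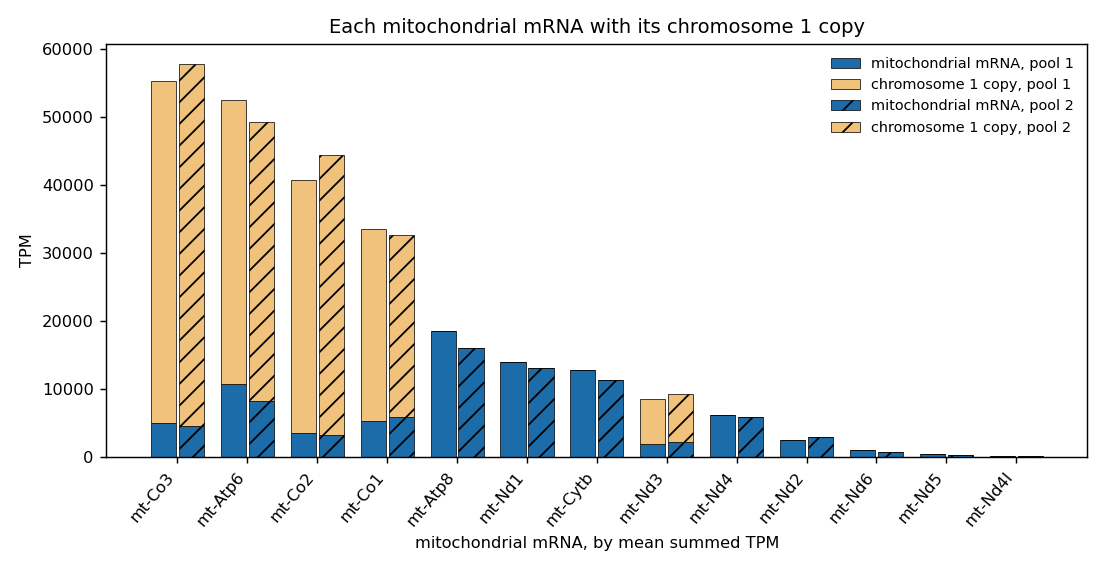
TPM of each of the 13 mitochondrial mRNAs (blue) with its chromosome 1 copy stacked on it (yellow), plain bars for pool 1 and hatched bars for pool 2, ordered by the mean of the sum. The copy makes up most of the bar for mt-Co3, mt-Atp6, mt-Co2, mt-Co1 and mt-Nd3, and the other 8 mRNAs have no copy added.

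The order of the 13 mRNAs was the same in both pools, with or without copies. Alone it ran mt-Atp8, mt-Nd1, mt-Cytb, mt-Atp6, mt-Nd4, mt-Co1, mt-Co3, mt-Co2, mt-Nd2, mt-Nd3, mt-Nd6, mt-Nd5 and mt-Nd4l. Summed it ran mt-Co3, mt-Atp6, mt-Co2, mt-Co1, mt-Atp8, mt-Nd1, mt-Cytb, mt-Nd3, mt-Nd4, mt-Nd2, mt-Nd6, mt-Nd5 and mt-Nd4l. In each order none of the 12 neighbouring pairs had overlapping ranges between the pools. With the posterior mean TPM of the mRNAs alone, 3 of 12 neighbouring pairs overlapped and mt-Co3 came first. The 5 mRNAs with a copy held 33.9% of the mRNA counts in pool 1 and 34.2% in pool 2 by themselves, and 74.6% and 76.2% of the counts of mRNAs and copies once summed.

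How the counts of a pair were divided was poorly determined for 3 of the 5 pairs. The deposited tables give, besides the expected count, a posterior mean and a posterior SD of each count, which measure how freely reads can be moved between rows. For mt-Co3 the expected count was 136151 in pool 1 and 106685 in pool 2, while the posterior mean was 499520 and 433598 with a posterior SD of 371317 and 340818. For mt-Atp6 the expected count was 252972 and 167730, and the posterior mean was 369896 and 209949 with an SD of 147130 and 58970. For mt-Co2 it was 81545 and 66410, and the posterior mean was 124101 and 84970 with an SD of 66427 and 32487. Of the 5 pairs, these are the 3 with no substitution. Gm10222 and Gm28439, outside the 5, have none either. For mt-Nd4l, copied by Gm10222, the posterior SD was 284 and 299 counts against posterior means of 954 and 870. For mt-Nd4, copied in part by Gm28439, it was 1.16 in pool 1 and 0.98 in pool 2.

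The other 2 of the 5 pairs, which have a substitution, were divided more firmly than mt-Co3, mt-Atp6 and mt-Co2. mt-Nd4, whose copy has none, was divided more firmly still. Its posterior SD was 0.000365% of its posterior mean count in pool 1 and 0.000372% in pool 2. What sets these differences was not tested. For mt-Nd3 the posterior SD was 5.60% of its posterior mean count in pool 1 and 6.90% in pool 2. For mt-Co1 it was 0.127% and 0.149%, and most of mt-Co1 lies outside the copy. In mt-Nd1, mt-Cytb, mt-Atp8, mt-Rnr1 and mt-Rnr2 the posterior SD was 0 in both pools.

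**Figure D4:**
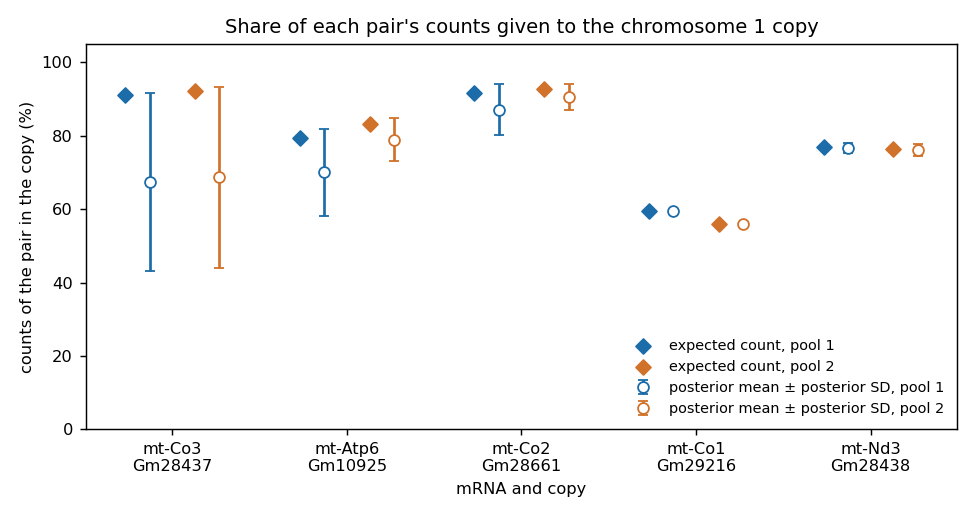
Percent of each pair's counts given to the chromosome 1 copy, by expected count (diamonds) and as posterior means with the posterior SD (circles with bars), in pool 1 (blue) and pool 2 (orange). The bars are widest for mt-Co3 with Gm28437, where expected counts put the copy at 91.1% and 92.3% and the posterior means 67.5% and 68.6%.

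The sums hardly depended on that division. Taken alone, 5 of the 13 mRNAs had whole numbers of counts in both pools, within 0.011 counts. With the chromosome 1 copies added, Gm10222 and Gm28439 included, 10 had whole numbers, and with every annotated row of at least 90% identity over 100 bases or more, all 13 did. Those further rows were Gm13339, Gm13340 and Gm13341 on chromosome 2, which resemble mt-Nd2, mt-Co1 and mt-Co2 and held 40.8, 339 and 281 counts in pool 1, and 36.2, 233 and 309 in pool 2, and Gm11410, Gm11407, Gm11408, Gm4076 and Gm11512, of which Gm11410 had 2 counts in pool 1 and the others had 0.

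An identical copy did not always take counts. Gm28439 matches the first 876 bases of mt-Nd4 without a substitution, which is 63.6% of that mRNA, and was given 1.54 counts in pool 1 and none in pool 2, against 317394 and 263236 for mt-Nd4. Gm10222 covers 98.99% of mt-Nd4l and held 80.4% and 76.5% of the counts of that pair. With it, mt-Nd4l had a summed TPM of 499.8 in pool 1 and 495.7 in pool 2, above mt-Nd5. Gm29216, which covers the 3′ end of mt-Co1, held 57.7% of the counts of its pair as a mean of the pools.

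Between the pools, the mitochondrial mRNAs mostly had lower scaled counts in pool 2 and the rRNAs had slightly higher ones. Ratios are of counts scaled by TMM, a scaling that centres most genes on no change, as pool 2 over pool 1. None of the 20 genes with counts was past 2-fold, against a background of 32% of the 14478 genes with at least 10 counts in total. Most of those genes have few counts, and of the 328 genes with a mean of at least 10000 counts 3.05% were past 2-fold. Against that background a count of 0 among 20 is no result about these genes.

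The log2 ratios ran from -0.65 for mt-Nd6 and mt-Atp6 to 0.23 for mt-Rnr1. The median of the 20 was -0.31, against 0.00 for all genes tested and -0.18 for the 328 genes of high count. Of the 13 mRNAs, 12 had a ratio below 0, the exception being mt-Nd2 at 0.02. All 5 copies were below 0, from -0.35 for Gm29216 to -0.14 for Gm28661. Both rRNAs were above 0, with mt-Rnr2 at 0.04. These signs depend on the scaling. Under total counts 4 mRNAs, both rRNAs and 3 copies were above 0, with all genes at a median of 0.19. Under spike-in totals all 20 were below 0, with all genes at -0.77, and 11 were past 2-fold, against 46.9% of all genes. Relative to the median of all genes the median of the 20 was -0.31 under each of these 3 scalings, which shift all genes alike. With 1 library on each side there is no replicate check.

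**Figure D5:**
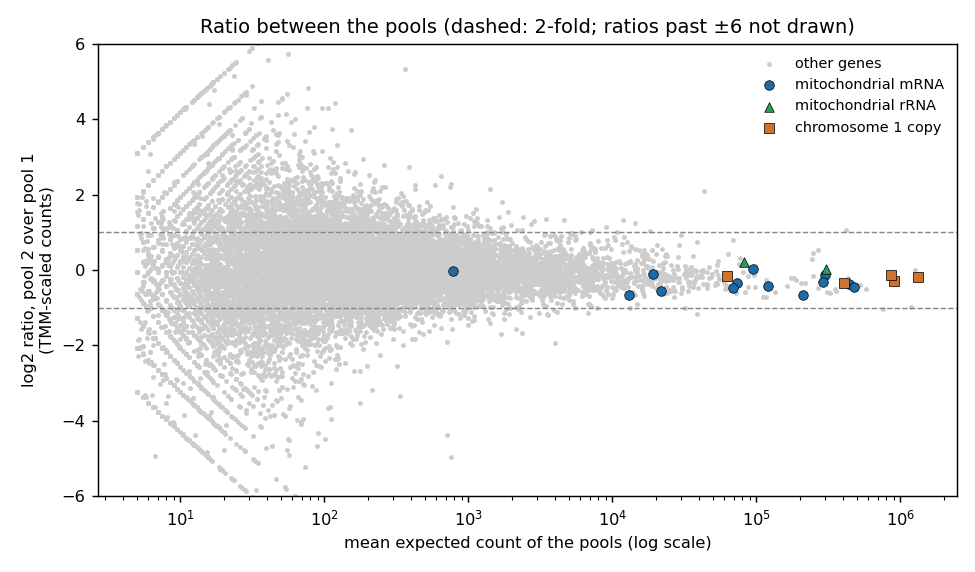
Log2 ratio of TMM-scaled counts, pool 2 over pool 1, against the mean expected count on a log axis, for all genes with at least 10 counts (grey) and for mitochondrial mRNAs, rRNAs and chromosome 1 copies. The 20 genes lie between -0.65 and 0.23, inside the dashed 2-fold lines.

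The pools carried RNA of Purkinje cells and, with lower sums of TPM, of glia and, mainly in pool 1, of red blood cells. Each of 8 Purkinje cell markers, among them Pcp2 and Calb1, passed a TPM of 1 in both pools, and their TPM summed to 57685 in pool 1 and 55068 in pool 2. Of 6 markers of Bergmann glia and astrocytes, 5 passed it and Gfap did not, with sums of 1975 and 3478. Single genes overlapped, since Slc1a3 of this list, at 1310 and 2298, was above Gad1 of the Purkinje list at 675 and 639. The 4 red blood cell genes all passed it, with sums of 2453 and 16.2. Sums were 28.3 and 36.7 for granule cells (4 of 5 passed), 35.5 and 51.6 for oligodendrocytes (3 of 4), 18.9 and 13.6 for endothelial and mural cells (2 of 4) and 3.08 and 2.36 for microglia (1 of 4). No list of inhibitory interneurons was used, so the part of such cells in the sum of the Purkinje list was not tested. Mitochondrial RNA cannot be assigned to a cell type from these tables, and the part of the listed cell types in its levels was not tested. In such pools fewer cells of a type and less RNA per cell cannot be told apart.

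The median of the mitochondrial mRNAs, taken without copies, stood above that of the nuclear-encoded subunits in each complex. For complex I, the median TPM of the 7 mitochondrial mRNAs was 1919 in pool 1 and 2160 in pool 2, against 408 and 543 for 36 nuclear subunits. The ratio was 4.70 and 3.98. For complex III it was 5.59 and 4.07, with mt-Cytb against 9 nuclear subunits. It was 4.04 and 4.13 for complex IV, with 3 mRNAs against 14, and 11.96 and 9.18 for complex V, with 2 against 16. With copies added it was 33.6 and 41.1 for complex IV and 29.1 and 24.7 for complex V. These ratios depend on the genes listed. The list for complex IV includes Cox4i2, Cox6a2 and Cox7a1, at a mean TPM of 5.5, 2.01 and 40.8. That for complex V includes Atpif1, an inhibitor of the complex, at 2246. Other lists were not tried. The 8896 genes with a symbol that passed a TPM of 1 in either pool had a median of 3.07 and 3.87.

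The ranges overlapped within complexes I and IV. Of the 36 nuclear complex I subunits, 32 had a mean TPM above that of mt-Nd4l, and none was above mt-Nd1. The highest were Ndufa3 at 5687 ± 1148 and Ndufa5 at 3913 ± 189 (SD, n = 2). In complex IV, Ndufa4 at 12401 ± 363 and Cox6c at 5762 ± 351 exceeded mt-Co1, the highest of the 3 mRNAs taken alone by TPM. By posterior mean TPM the highest was mt-Co3, at 17781, which lies above the TPM of both. With copies added, the lowest of the 3 was mt-Co1 at 33071 ± 598, and 0 of the 14 nuclear subunits exceeded it. Over the effective length of mt-Co1, its pair stood at 12989 ± 116, only slightly above Ndufa4. In complex III the highest nuclear subunits were Uqcr10 at 4354 ± 65.1 and Uqcrb at 3816 ± 273. In complex V they were Atp5j at 4587 ± 527 and Atp5b, the catalytic beta subunit, at 2476 ± 58.7.

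Nuclear genes for the expression and upkeep of mitochondrial DNA had a lower median TPM than the nuclear subunits of each complex. Of 37 with a row, 21 passed a TPM of 1 in both pools and 12 in neither. The median of the 37 was 1.14 in pool 1 and 1.62 in pool 2. Of all 43346 gene rows, 7631 passed that TPM in pool 1 and 8421 in pool 2. Those are counts for single pools, and how many of all rows passed in both or in neither was not counted. The 21 had medians of 2.21 and 2.53, against 3.07 and 3.87 for the 8896 genes with a symbol that passed in either pool, a looser rule. The highest of the 37 was Slirp, which binds mitochondrial mRNAs and keeps them stable, at 271 ± 27.4 (SD, n = 2). Ssbp1, the single-strand DNA-binding protein of mitochondrial replication, had 29.1 ± 1.92. Grsf1, an RNA granule protein, had 25.2 ± 0.205, and Hsd17b10, a subunit of the enzyme that trims the 5′ ends of mitochondrial tRNAs, had 13.1 ± 0.134. Rexo2, an exonuclease of short RNAs, had 11.6 ± 5.32, and Fastk had 6.52 ± 2.35.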

How the data were processed

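Per the file headers, the deposited tables hold expected counts (with posterior means and SDs of the count), TPM and FPKM for each library, the authors' values. FPKM served only as an alternative to TPM. Per the text deposited with each sample, they were made on mm10 with GENCODE M4, and the column names are those of RSEM. The sources used here name neither the aligner nor any version. Symbols, positions and sequences came from GENCODE M21, a later release on the same build. It matched 42462 of 43346 gene rows.

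The pools held 31437230 and 28591242 counts on gene rows. Rows identified by a number alone name no gene. They held 0.000412% and 0.000194% of counts and were left out of totals, as were 97 control rows with 0.211% and 0.411%. Each pseudogene was aligned with the mitochondrial mRNAs and rRNAs (Biopython 1.88, free end gaps), and similar transcripts were sought with BLAST 2.17.0. Pool ratios used TMM factors from edgeR 4.0.16 on rounded counts, tested on simulated data. No test between conditions was possible. The genes named were all 42, the 2 highest nuclear subunits of each complex and the 6 highest genes of mitochondrial DNA expression. Gene rows outside that rule were named after their values were seen. The members and lists were chosen with earlier results of these data known.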

Additional observations from a re-analysis of the deposited data

Results flagged for a closer look

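Gm10222 lies outside the 42 genes and had counts above the 3 that a count of 0 allows, with 3194 expected counts in pool 1 and 2595 in pool 2. It is the chromosome 1 copy of mt-Nd4l, and its mean TPM was 392 ± 16.1 (SD, n = 2).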

How the results depend on the processing

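Of 100 values recomputed for 36 results with both pools, 73 counted as unmoved and 27 as moved. For shares, TPM and ratios to nuclear subunits the limit was the spread between the pools. Numbers of genes and the median log2 ratio have no such spread, so another limit was used for them. Only the median log2 ratio could change sign, and it stayed negative under every setting. Signs of single genes did depend on the scaling. Some values could not move by more than rounding, such as rescaled FPKM, the tRNA share and nuclear subunits that pass a TPM of 1. With posterior mean counts, the mRNAs held 8.58% of counts and the copies 10.4%, and the copy's share was 88.8% for mt-Co2 with Gm28661, 74.5% for mt-Atp6 with Gm10925 and 68.1% for mt-Co3 with Gm28437. With posterior mean TPM the median of the 13 mRNAs was 5420 and the total of mRNAs and copies 241036. That total was 223736 with summed counts over the mRNA's effective length, against 244390 as reported. Under spike-in totals 11 of the 20 genes were past 2-fold between the pools, against 46.9% of all genes and 43.0% of the 328 genes of high count. With copies added, the ratio to nuclear subunits was 5.66 for complex I, 37.4 for complex IV and 26.9 for complex V. The cause of these moves was not tested. A further 66 values leave out a pool, which leaves the other pool's value, by construction within 1 SD of the mean, and so say nothing of stability. Dividing each copy by aligned bases gave 5.96% of Gm10925 to mt-Atp8, which put mt-Atp6 at 48382 and left the order unchanged. Shares from posterior means, their values in single pools and the total with Gm10222 and Gm28439 were added after seeing the data. No paired analysis was possible because there is a single group. All 22 tRNA rows have an effective length of 0, so their counts of 0 measure nothing. The division of counts was poorly determined for mt-Co3, mt-Atp6 and mt-Co2 with their copies, and its cause was not tested.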
